A study of Mus musculus with 14 samples.

Results

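The regions described here are the RNA polymerase II (POL2) ChIP-seq peaks that shared no base with any TAF9B peak, called POL2-only peaks below. They numbered 5365 of the 8620 POL2 peaks, a share of 62.2% (95% Wilson interval 61.2 to 63.3%, counting error only). The other 3255 POL2 peaks overlapped at least 1 of 10415 TAF9B peaks. The members were chosen by the positions of these called peaks alone, so peak score, peak width and distance to TAF9B are descriptions of the selection, whereas position, promoter sequence and RNA levels were not used to choose the peaks.

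Both ChIP libraries came from wild type embryoid bodies of the HBG3 line, a mouse ES cell line (C57BL/6 by its label) with a GFP reporter for motor neurons, at day 8 of differentiation with retinoic acid and the smoothened agonist SAG. RNA was sequenced from wild type JM8 cells and from the Taf9b_BG10 clone (labelled TAF9B -/-) as ES cells and as embryoid bodies (EBs) at days 2, 4 and 6, from newborn spinal column tissue of both genotypes, and from wild type newborn spinal cord. Each condition was 1 library, so the chromatin and RNA data differ in cell line and day, the mutant cultures are a single clone, and no difference between libraries below has a replicate check or a p-value. EBs are mixtures of cells, and in bulk RNA fewer cells of a type and less RNA per cell cannot be told apart.

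POL2 transcribes messenger RNAs, most microRNA precursors and most spliceosomal small nuclear RNAs (snRNAs), and on many genes it accumulates just downstream of the start site. TAF9B is a TBP-associated factor, a close relative of TAF9, and TAFs of this kind sit in the TFIID and SAGA complexes that recognise or modify chromatin at promoters. An antibody to POL2 can also precipitate chromatin along the body of a gene that is being transcribed heavily.

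*Taf9b* itself was listed at 1.37 FPKM (read fragments scaled to transcript length and library size) in the EB day 6 library labelled WT and 4.01 FPKM in the library labelled KO, and the library labelled KO was also the higher in ES cells and at EB days 2 and 4. This goes against the labels of the cultures, and whether the reads came from the deleted part of the gene was not tested. In the spinal column the values were 6.65 FPKM in the library labelled WT and 3.31 FPKM in the library labelled KO. Directions below are therefore given by the label of the library. In the EB day 6 WT library the motor neuron markers *Mnx1* (14.3 FPKM), *Lhx3* (14.9 FPKM) and *Isl1* (10.96 FPKM) were present, beside pluripotency markers such as *Pou5f1* (198 FPKM). In the EB day 6 library labelled KO these 4 genes were at 1.62, 0.335, 0.549 and 543 FPKM in the same order.

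Some of the highest-scored POL2-only peaks lay on genes for small RNAs. The 100 bases before the start are shown for the 6 with the highest scores among peaks with midpoints within 500 bp of a start. These 6 are shown because 4 of them hold the same short element at a similar distance from the start. In each sequence, from the mm9 genome with starts from GENCODE, capitals mark matches to 7 promoter motifs searched on either strand and to the letters TCACC on the gene's own strand, a search added after the sequences had been read. The line for U4 covers chr5:115940163-115940262 on the plus strand, under a peak with a score of 3100. Snord118, the U8 small nucleolar RNA gene, is shown for chr11:68886829-68886928 on the plus strand. The U5 genes are shown for chr4:116875033-116875132 on the plus strand and chr9:65049649-65049748 on the minus strand. Snord13 is shown for chr8:32260440-32260539 on the minus strand and U2 for chr11:83084900-83084999 on the plus strand.
U4: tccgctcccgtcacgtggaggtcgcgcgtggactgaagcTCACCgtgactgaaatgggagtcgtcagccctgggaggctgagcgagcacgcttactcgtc
Snord118: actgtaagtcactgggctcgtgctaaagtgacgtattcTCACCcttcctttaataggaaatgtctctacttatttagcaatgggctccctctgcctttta
U5 on chromosome 4: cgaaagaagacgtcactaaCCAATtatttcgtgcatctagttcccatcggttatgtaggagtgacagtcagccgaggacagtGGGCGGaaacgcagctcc
U5 on chromosome 9: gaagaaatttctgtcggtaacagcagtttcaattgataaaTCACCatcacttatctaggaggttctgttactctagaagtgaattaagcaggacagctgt
Snord13: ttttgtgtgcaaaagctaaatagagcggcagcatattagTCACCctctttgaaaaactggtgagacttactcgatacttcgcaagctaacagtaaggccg
U2: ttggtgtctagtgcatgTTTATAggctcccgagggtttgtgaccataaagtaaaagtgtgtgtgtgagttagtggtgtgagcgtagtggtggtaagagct
TCACC occurred in 4 of these 6 windows, and in all 4 it began 60 to 62 bases before the start (61 in U4, 62 in Snord118, 60 in U5 on chromosome 9 and 61 in Snord13). The same letters occurred on the same strand in 8.93% of the 100-base stretches before all 32851 RefSeq starts. Vertebrate snRNA genes carry a proximal sequence element at about this distance from the start, and its consensus holds such letters. Apart from this stretch the windows had little in common, with 19 to 44 of 100 aligned bases the same in any pair and the highest value between both U5 genes.

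Among POL2 peaks whose midpoint was within 500 bp of a start and whose nearest start was an snRNA gene, 14 of 20 were POL2-only (70%, Wilson interval 48.1 to 85.5%), and for small nucleolar RNA genes the count was 7 of 13. These intervals span the 62.2% of all POL2 peaks. The U11, U12 and U1 genes with scores of 3013, 2538 and 2864 had TAF9B peaks, so genes of the same kind stood on both sides. Several snRNA and U3 genes exist in near-identical copies, and reads may have been assigned among copies in ways the peak lists do not show. For microRNA genes 21 of 26 such peaks were POL2-only (80.8%, 62.1 to 91.5%), an interval that also spans the 62.2%, and at protein-coding starts 59.4% of 6539 peaks were (58.2 to 60.6%). Being transcripts without long poly-A tails, snRNAs are poorly measured in the poly-A RNA libraries, so no RNA value is set beside these peaks.

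Around the threshold of membership, POL2-only peaks near *Rbm45*, *Dusp28* and *Cdkn1b* lay 1, 6 and 6 bp from the next TAF9B peak. On the other side, peaks at *Rps26*, *Trim45* and *Anapc4* counted as having TAF9B through overlaps of 4, 7 and 14 bp. Such cases were few, with 183 of 5365 POL2-only peaks (3.41%) within 500 bp of a TAF9B peak and 319 (5.95%) within 1000 bp. The median distance to the nearest TAF9B peak was 36.2 kb (quartiles 10.6 and 95.7 kb).

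POL2-only peaks had lower MACS scores than POL2 peaks with TAF9B, with medians of 117 and 165, and they were slightly narrower, with medians of 659 and 723 bp. By its range from 50 to 3100 the score is −10 log10 of the peak p-value. Their share of the POL2 list was 73.7% in the lowest score quartile and 51.2% in the highest (Wilson intervals 71.8 to 75.6% and 49.1 to 53.3%). It was 41 of the 100 POL2 peaks with the highest scores. Peaks without TAF9B were thus found at every strength of POL2 signal, and a TAF9B signal too weak to be called at a weak POL2 site cannot be told apart from none.

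**Figure D1:**
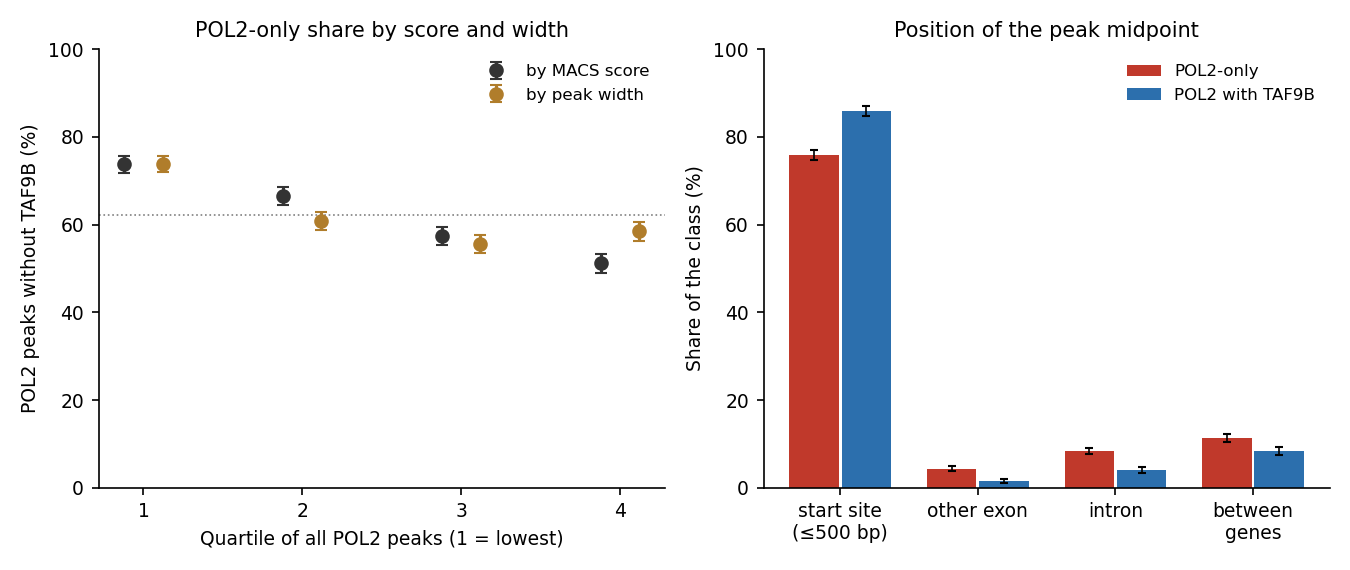
Left, the percentage of POL2 peaks without TAF9B in each quartile of MACS score (black) and of width (brown) over all 8620 peaks, with 95% Wilson intervals and the overall 62.2% as a dotted line. Right, where peak midpoints lay by GENCODE annotation, as a percentage of each class with 95% Wilson intervals: 76.0% of POL2-only peaks and 86.0% of POL2 peaks with TAF9B lay within 500 bp of a start site.

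By GENCODE, 4076 POL2-only peaks (76.0%, Wilson interval 74.8 to 77.1%) had their midpoint within 500 bp of a transcript start, compared with 86.0% (84.8 to 87.2%) of POL2 peaks with TAF9B. The remaining POL2-only peaks fell in introns (8.31%), in other exons (4.40%) and between genes (11.3%). The matching shares of POL2 peaks with TAF9B were 4.12%, 1.57% and 8.29%, and none of these 3 intervals overlapped that of the POL2-only peaks. The intervals take peaks as independent, which neighbouring peaks of a single broad stretch are not. For instance, 22 POL2-only peaks lay in a single stretch of *Slit3*, and 198 lay in 28 such groups described below. Against the loci of the RNA tables, 3497 POL2-only peaks (65.2%) were at a 5′ end, 113 (2.11%) at a 3′ end, 1007 inside a locus and 714 between loci. The 3′ end share was 0.829% among peaks with TAF9B (Wilson interval 0.571 to 1.20% against 1.75 to 2.53%). Starts on both strands within 500 bp, as at divergent promoters, were found at 13.7% of POL2-only peaks (12.8 to 14.6%) and at 14.9% of peaks with TAF9B (13.7 to 16.2%), shares whose intervals overlapped.

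By chromosome the share without TAF9B ran from 54.7% on chromosome 11 (524 of 958 POL2 peaks, Wilson interval 51.5 to 57.8%) to 81.3% on the X chromosome (139 of 171, 74.8 to 86.4%). Chromosome 13, which holds the main histone gene cluster, had the next highest share among whole chromosomes (70.3%, 65.4 to 74.7%). The X chromosome also had few TAF9B peaks, 105 against 171 POL2 peaks, while 18 of the 19 autosomes had more peaks of TAF9B than of POL2.

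The strongest POL2-only peaks with midpoints away from start sites were broad. A peak with a score of 3100 and a width of 2974 bp reached over the 3′ end of *H3f3b*, with its midpoint outside the locus and 3.05 kb from the gene's start. *H3f3b* is a gene for the replication-independent histone variant H3.3, and its 5′ end carried a further POL2-only peak (score 2691). *H1f5*, which encodes a linker histone, had a peak of 2059 bp with a score of 2897 and its midpoint at the 3′ end. This midpoint was 732 bp from the start of the short gene, so the peak also covered the start. In the *Hoxa* cluster, whose homeobox genes set position along the body axis, peaks of 6277, 6587 and 4118 bp had scores of 2831, 2779 and 2497. Others among the 10 highest scores were at *5031425E22Rik* (score 2693), near Mir1894 within *Ppp1r10* (5435 bp wide, score 2548) and at *Snord118* (2575).

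The widest POL2-only peaks were 9834, 9087 and 7584 bp and lay in 1 stretch of *Slit3*, which encodes an axon guidance protein and hosts the microRNA gene *Mir218-2*. Between −72.6 kb and 7.22 kb from the start of *Mir218-2* there were 22 POL2 peaks, all of them POL2-only, that covered 76.5 of 79.8 kb (chr11:35357750-35437537, mm9). The highest scores in the stretch were at its far ends, 2416 in the outermost upstream peak and 2211 in the peak over *Mir218-2*, and the lowest was 74.8. The nearest TAF9B peak lay 53.7 kb from the second widest peak and 108 kb from the peak over *Mir218-2*.

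**Figure D2:**
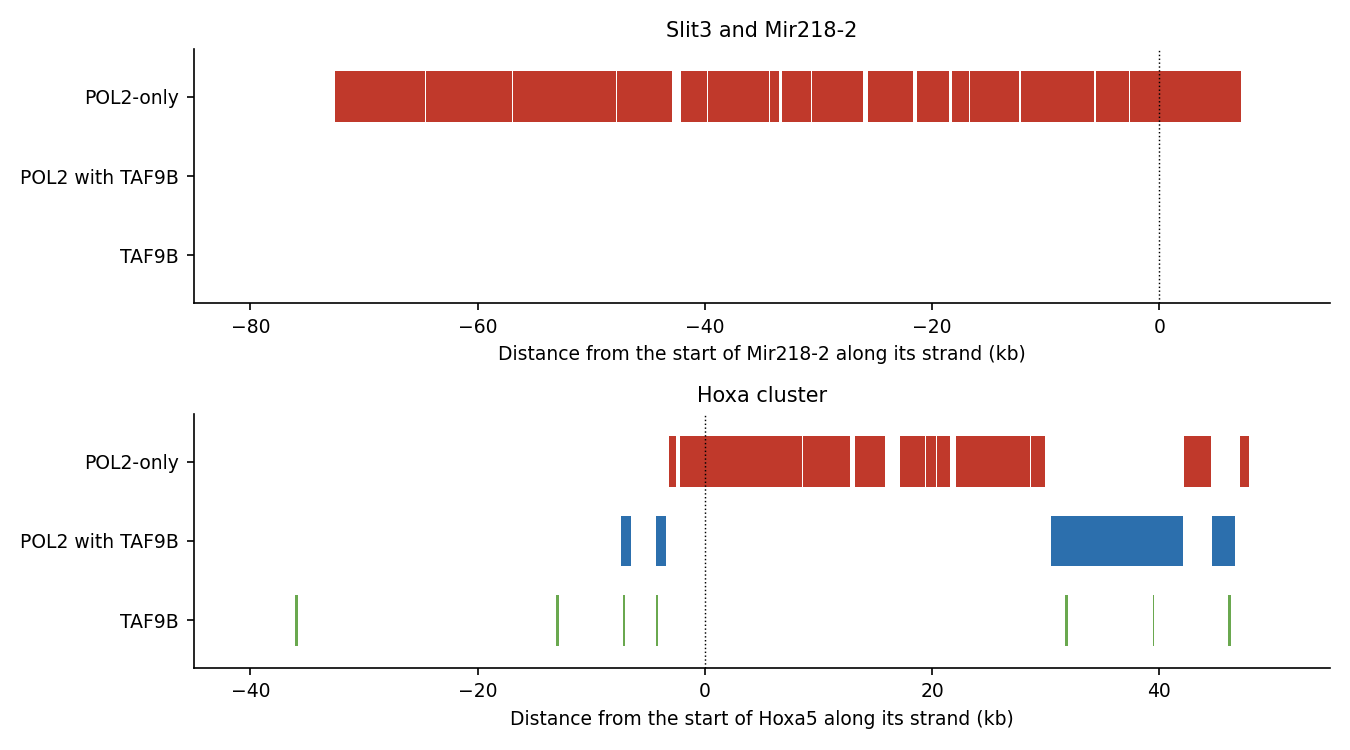
POL2-only peaks (red), POL2 peaks with TAF9B (blue) and TAF9B peaks (green) as boxes drawn to scale against distance in kb along the strand from the start of *Mir218-2* (top) and *Hoxa5* (bottom). The 22 peaks at *Mir218-2* form an almost unbroken stretch with no TAF9B peak, and at *Hoxa5* a dense group of POL2-only peaks with short gaps is flanked on both sides by peaks with TAF9B.

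Groups of at least 5 POL2-only peaks with gaps under 5 kb were then listed across the genome, a search made after the positions had been seen. There were 28 such runs with 198 peaks, and 22 of the 28 held no TAF9B peak. Besides *Slit3* the runs with the most peaks were at *Cyp26b1* with 12 peaks over 24.1 kb, *Hoxa3* to *Hoxa6* with 11 over 33.1 kb, and the histone cluster around *Hist1h3c* with 10 over 18.3 kb. *Ptch1* held 3 runs with 9, 8 and 5 peaks. Cyp26b1 breaks down retinoic acid, Dhrs3 reduces retinaldehyde, and Ptch1 is the Hedgehog receptor and itself a target of that pathway. *Dhrs3* had 7 peaks in a run, and *Sox11*, a transcription factor gene of young neurons, had 6.

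Several runs held microRNA genes, and mature sequences of 4 of them, chosen after the runs were seen, are shown from RefSeq (GRCm38.p6) with the seed, bases 2 to 8, in capitals. The mature microRNAs themselves were not measured, and FPKM values listed for such loci in the poly-A libraries are not levels of the mature forms.
miR-218-5p: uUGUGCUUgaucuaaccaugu
miR-9-5p: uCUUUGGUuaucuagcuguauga
miR-219a-5p: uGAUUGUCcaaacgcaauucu
miR-615-3p: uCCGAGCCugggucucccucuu
The 4 seeds differ from each other. The host of *Mir9-3* had a run of 8 POL2-only peaks, the region of *Mir9-2* had 6, with 2 TAF9B peaks in the same stretch, and that of *Mir124a-1* had 6. The run at *Ring1* and *Rxrb* held *Mir219a-1*, and the run from *Hoxc6* to *Hoxc4* held *Mir615*.

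Most genes under the runs were higher at EB day 6 than in ES cells. Of 46 genes found by name and above 1 FPKM in either WT library, 35 were over 2-fold higher at EB day 6 than in ES cells and 0 were over 2-fold lower, beside 23.1% higher and 15.1% lower of all expressed loci (the tables of both time points were normalised separately). Since the runs were chosen by POL2 in day 8 EBs, genes active only in ES cells could not enter, and the count of 0 lower is in part set by that choice. The 35 include *Mir218-2* and *Mir615*, both listed at 0 in ES cells. For *Cyp26b1* the WT libraries of ES cells and of EB days 2, 4 and 6 gave 0.778, 0.0633, 6.15 and 67.3 FPKM. *Hoxa5* gave 0.277, 0.154, 26.9 and 175 FPKM. *Ptch1* instead peaked at EB day 4, with 9.58, 9.37, 92.6 and 11.2 FPKM in the same order. *Sox11* had 9.85, 10.6, 33.7 and 46.0 FPKM.

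At EB day 6 the library labelled KO was over 2-fold lower than the library labelled WT for 19 of 48 expressed genes under the runs and over 2-fold higher for 0 of 48, beside 9.93% lower and 10.5% higher of all 13006 expressed loci. The runs come from POL2 peaks of wild type cells, so genes transcribed only in the mutant could not enter and the count of 0 higher is in part set by the choice. Several of the genes are neighbours in 1 cluster, and the 19 include *Mir218-2* and *Mir615*, both listed at 0 in the KO library. *Hoxa5* had 175 FPKM in the WT and 30.5 FPKM in the KO library, *Cyp26b1* 67.3 and 15.9 FPKM. *Nr2f1*, a nuclear receptor gene of the developing nervous system, had 53.5 and 3.21 FPKM. *Prdm8* had 47.4 and 2.07 FPKM, and *Sox11* had 46.0 and 6.96 FPKM. *Slit3* was lower as well, at 8.94 and 2.85 FPKM. Of these, *Prdm8* and *Dhrs3* had TAF9B with POL2 at an end of the locus. *Nr2f1* and *Slit3* had no peak at an end of their listed coordinates, their runs lying inside or beside them. *Hoxa5* had none there either, but its listed coordinates are shared by 5 genes. A POL2-only peak with a score of 1679 reached from −2.208 to 2.285 kb around the start of *Hoxa5* itself. *Dhrs3* differed less, with 51.3 and 42.2 FPKM, and the histone genes under the runs lay within 2-fold, for instance *H3c3* with 9.49 and 17.5 FPKM.

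Promoter motifs differed in frequency between genes of POL2-only loci and genes of loci with POL2 and TAF9B. The 10-base NRF1 palindrome, the core of the site bound by the activator NRF1, occurred in 150 of 3906 RefSeq promoters of POL2-only loci (3.84%, Wilson interval 3.28 to 4.49%) and in 24 of 2810 promoters of loci that had POL2 and TAF9B (0.854%, 0.575 to 1.27%). In all 32851 promoters of this length the share was 0.971%. Each promoter ran from 250 bases before to 50 bases after a start, and 3223 of 4069 POL2-only gene symbols had at least 1. Promoters were matched to loci by gene symbol and not by position under a peak. They therefore include other starts of a gene and genes whose peak was at the 3′ end. The GC box GGGCGG was also more frequent at POL2-only loci, at 70.3% (68.8 to 71.7%) against 59.6% (57.7 to 61.4%), with 35.7% of all promoters. The CCAAT box went the other way, with 36.8% (35.3 to 38.3%) against 43.9% (42.1 to 45.7%) and 37.4% of all promoters. The ETS-type core CCGGAAG was found in 21.1% (19.9 to 22.4%) of POL2-only promoters and 26.7% (25.1 to 28.4%) of those with TAF9B, both above the 8.86% of all promoters.

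The other motifs had overlapping intervals in both classes. TATAAA occurred in 6.45% and 6.76%, below the 13.6% of all promoters. The cyclic AMP response palindrome TGACGTCA occurred in 4.05% and 4.02%, and the YY1 motif in 1.92% and 2.28%. All 7 were searched on both strands, and a match is not evidence of binding.

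POL2-only promoters were richer in GC, with a median of 63.0% against 59.7%, and in CpG, with a median observed-to-expected ratio of 0.832 against 0.756. The palindrome is itself rich in GC, and within promoters of 60 to 65% GC it occurred in 39 of 798 POL2-only promoters (4.89%, 3.60 to 6.61%) and 5 of 708 with TAF9B (0.706%, 0.302 to 1.64%). The intervals of both classes were also apart below 55%, from 55 to 60% and from 65 to 70% GC. Above 70% GC they overlapped, with 26 of 866 (3.0%) and 7 of 202 (3.47%).

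**Figure D3:**
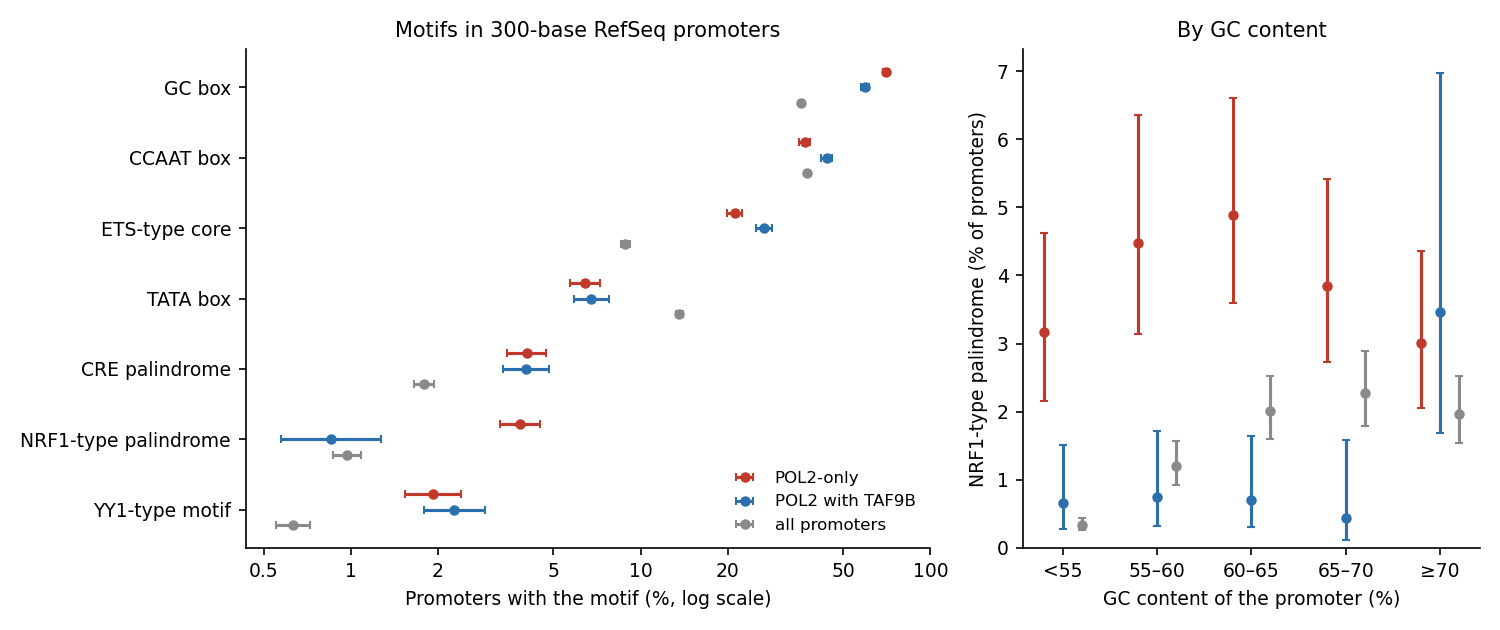
Left, the percentage of 300-base RefSeq promoters that hold each motif (log scale) for POL2-only loci (red), loci with POL2 and TAF9B (blue) and all promoters (grey), with 95% Wilson intervals. Right, the NRF1-type palindrome by GC content of the promoter: POL2-only promoters lay between 3.0% and 4.89% in all 5 bands, and promoters with TAF9B below 1% in all bands except the highest.

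Of the 150 POL2-only promoters with the palindrome, 86 had it wholly within the 100 bases before the start. These 100 bases are shown for 4 genes with high-scored POL2-only peaks at their ends, with the palindrome in capitals, from RefSeq (GRCm38.p6).
*Gpr19*, an orphan receptor gene, chr6:134897826-134897925, minus strand: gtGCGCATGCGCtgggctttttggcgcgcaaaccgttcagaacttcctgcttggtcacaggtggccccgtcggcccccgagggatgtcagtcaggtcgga
*Selenot*, a selenoprotein gene, chr3:58576536-58576635, plus strand: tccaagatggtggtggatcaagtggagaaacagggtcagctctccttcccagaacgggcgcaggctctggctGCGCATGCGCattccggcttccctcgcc
*Map2k2*, a MAP kinase kinase gene, chr10:81105815-81105914, plus strand: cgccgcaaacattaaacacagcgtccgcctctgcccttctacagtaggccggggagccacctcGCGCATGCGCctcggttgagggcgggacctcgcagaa
*Snrnp70*, which encodes a U1 snRNP protein, chr7:45395743-45395842, minus strand: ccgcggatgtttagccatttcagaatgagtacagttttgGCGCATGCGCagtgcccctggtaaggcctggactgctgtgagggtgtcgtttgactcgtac
The peaks of these genes had scores of 804, 663, 660 and 630. At EB day 6 *Gpr19* had 18.1 FPKM in the library labelled WT and 14.6 in the library labelled KO, *Selenot* 57.9 and 62.6, *Map2k2* 99.3 and 77.5, and *Snrnp70* 255 and 183. The 140 genes with the palindrome had a median of 16.0 FPKM (quartiles 7.43 and 45.1) in the WT library, and of the 132 above 1 FPKM in either library 9 were over 2-fold lower and 0 over 2-fold higher in the library labelled KO, beside 9.93% lower and 10.5% higher of all expressed loci and 8.64% and 3.16% of POL2-only loci.

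For RNA levels, a locus was called POL2-only when a POL2-only peak had its midpoint within 500 bp of an end and neither a POL2 peak with TAF9B nor a TAF9B peak did. This gave 4102 of 23152 listed genes (17.7%). RNA levels were close to those of genes with both factors. The median at EB day 6 WT was 14.2 FPKM (quartiles 4.76 and 39.7) for POL2-only loci and 14.1 FPKM for the 2939 loci with POL2 and TAF9B. Values above 1 FPKM were found for 89.9% of POL2-only loci (Wilson interval 88.9 to 90.8%) and 89.2% (88.0 to 90.3%) of loci with both. The 1341 loci with TAF9B alone had a median of 3.17 FPKM, and the 14476 with no peak 0.129 FPKM. Among POL2-only loci the level went with the score of the peak, with medians of 10.3, 12.1, 15.2 and 20.4 FPKM from the lowest to the highest score quartile, given here as a description.

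**Figure D4:**
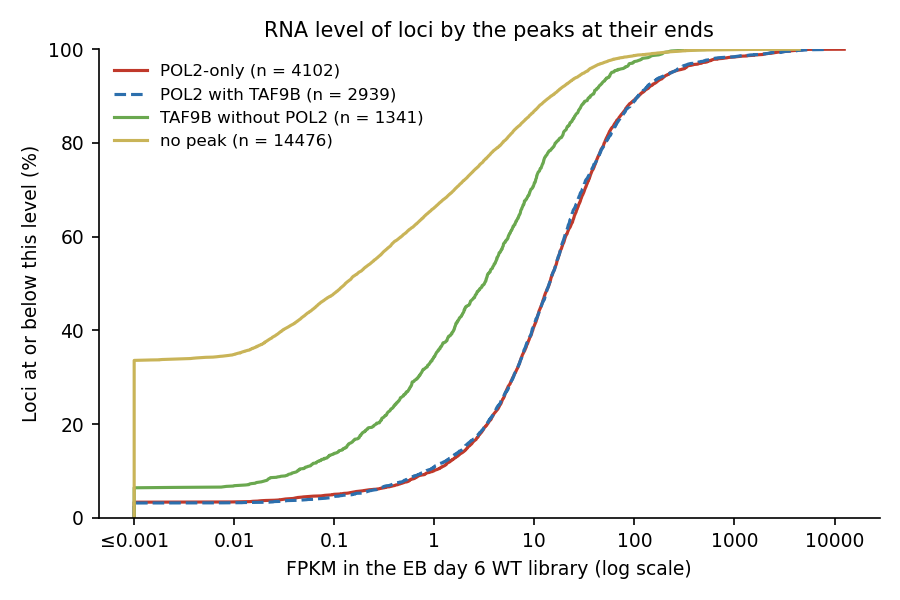
Cumulative percentage of loci against FPKM in the EB day 6 WT library (log scale) for loci with POL2-only peaks, POL2 and TAF9B, TAF9B without POL2, or no peak at their ends. The curves of both POL2 classes run together, with medians of 14.2 and 14.1 FPKM.

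Most of the 10 highest RNA levels among POL2-only loci were those of ribosomal protein genes. *Rpl41* had 12514 FPKM in the EB day 6 WT library and 8249 in the KO library, and others among the 10 highest were *Rps29*, *Ftl1*, *Rps15*, *Rps20*, *Rps12*, *Rps18*, *Tpt1* and *Rps14*, between 4167 and 5686 FPKM. Of 79 cytosolic ribosomal protein genes 46 were POL2-only, 29 had POL2 and TAF9B and 2 had no peak at an end. Of all listed genes 4102 (17.7%) were POL2-only, 2939 (12.7%) had both and 14476 (62.5%) had no peak at an end. The 46 ranged from −0.60 to 0.36 in log2 KO over WT at EB day 6, and 0 passed 2-fold, beside 9.93% lower and 10.5% higher of all expressed loci. Of 45 respiratory chain and ATP synthase genes 22 were POL2-only and 19 had both, and of 31 proteasome genes 13 were POL2-only and 13 had both. In these lists, too, 0 POL2-only members passed 2-fold, with medians of −0.16 and −0.12, and the same held for all 79, 45 and 31 genes of the lists whatever their peaks.

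Genes of the transcription machinery were divided between both classes, which held 17.7% (POL2-only) and 12.7% (POL2 and TAF9B) of all listed genes. Of 17 TFIID genes found by name, 5 were POL2-only (*Taf2*, *Taf4*, *Taf4b*, *Taf6* and *Taf9*) and 9 had TAF9B. *Taf9*, the gene of TAF9B's close relative, had 145 FPKM in the EB day 6 WT library and 118 in the KO library under a peak with a score of 267. Of 23 SAGA and ATAC genes 11 were POL2-only and 2 had both factors, among the former the deubiquitinase gene *Usp22* (score 520, 70.1 and 46.6 FPKM) and *Trrap* (6.79 and 6.94 FPKM). Of 10 POL2 subunit genes found by name 6 were POL2-only, and of 22 genes of pausing and elongation 9. *Taf4b* was the 1 POL2-only member of these lists that passed 2-fold at EB day 6, with 1.75 FPKM in the WT and 3.94 in the KO library. Over the whole lists 3 TFIID genes and 1 gene of pausing and elongation were over 2-fold higher, *Taf9b* itself among the former (10.5% of all expressed loci were higher).

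Replication-dependent histone genes, which make the bulk of histones in S phase, were POL2-only in 31 of 61 cases and had both factors in 13. Of all listed genes 17.7% were POL2-only and 12.7% had both. Scores of the peaks at the 31 ranged from 68.1 to 2897. *H3c1* and *H4c1* shared a peak with a score of 917 and had 3.14 and 4.90 FPKM, and *H2bc13* had 6.95 FPKM under a score of 767. Most such mRNAs end in a stem-loop without a poly-A tail and are caught poorly in poly-A libraries. *H2bu2* differed from the other members, at 61.9 FPKM in the EB day 6 WT library and 6.82 in the KO library, and was the 1 POL2-only member that was over 2-fold lower. Among the 28 expressed members 1 was over 2-fold higher, *H2bc9* (log2 1.05). Of the 51 expressed genes of the whole list 2 were lower and 5 higher, beside 9.93% and 10.5% of all expressed loci. The 13 and 31 members counted above include near-identical copies whose reads may be shared.

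Comparing the libraries labelled KO and WT at EB day 6, 322 of 3729 expressed POL2-only loci were over 2-fold lower (8.64%, Wilson interval 7.78 to 9.58%) and 118 were over 2-fold higher (3.16%, 2.65 to 3.78%). Of all expressed loci 9.93% were lower and 10.5% higher. Both POL2 classes are defined by peaks in wild type cells, and loci with POL2 and TAF9B had a similar split, with 7.38% (6.45 to 8.44%) lower and 2.56% (2.02 to 3.23%) higher. Loci without a peak were higher in 19.7%. The lower share depended on level: among POL2-only loci with a mean of 1 to 5 FPKM 16.0% were lower and 4.19% higher, and above 100 FPKM 4.29% and 2.03%. The lower share of all loci followed level in the same way, with 14.4% lower and 16.3% higher at 1 to 5 FPKM and 5.07% and 4.87% above 100 FPKM. The median log2 ratio was −0.07 for POL2-only loci, −0.08 for loci with both and 0.00 for all expressed loci.

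**Figure D5:**
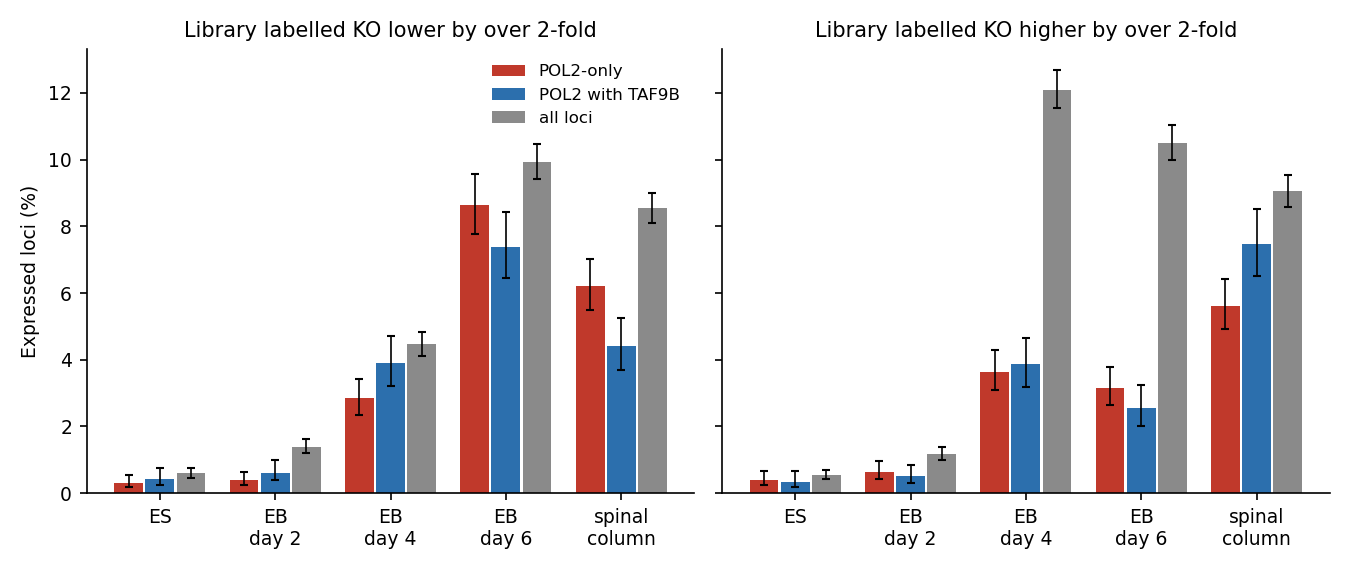
Percentage of expressed loci (above 1 FPKM in either library) that were over 2-fold lower (left) or higher (right) in the library labelled KO, for POL2-only loci (red), loci with POL2 and TAF9B (blue) and all loci (grey) in 5 comparisons, with 95% Wilson intervals that cover counting error only. In the right panel both POL2 classes stay below all loci at EB days 4 and 6, and in the spinal column the POL2-only bar is above the blue bar for lower and below it for higher loci.

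In ES cells and at EB day 2 few loci passed 2-fold. In ES cells 11 POL2-only loci were lower and 14 higher (0.305% and 0.388% of 3611), beside 0.59% and 0.54% of all expressed loci. At EB day 2 the counts were 14 and 23 of 3619, beside 1.4% and 1.19% of all loci. At EB day 4, 106 of 3733 POL2-only loci were lower (2.84%, 2.35 to 3.42%) and 136 higher (3.64%, 3.09 to 4.29%), beside 4.46% and 12.1% of all loci. Loci with POL2 and TAF9B stood at 3.90% (3.23 to 4.70%) lower and 3.86% (3.19 to 4.66%) higher at that day.

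Neural genes were among the POL2-only loci that were lower in the EB day 6 library labelled KO. Of 15 pan-neuronal genes 5 were POL2-only, beside 17.7% of all listed genes. All 5 were over 2-fold lower, beside 9.93% lower and 10.5% higher of all expressed loci. *Elavl4*, a neuronal RNA-binding protein gene, had 25.6 FPKM in the library labelled WT and 0.552 in the library labelled KO. *Elavl3* had 20.6 and 0.959 FPKM, and *Map2*, which encodes a dendritic microtubule-associated protein, had 16.0 and 1.49 FPKM. *Rbfox3* (NeuN) had 3.14 and 0.252 FPKM, and *Stmn2* had 180 and 63.1 FPKM. The other 10 pan-neuronal genes were over 2-fold lower too, including *Tubb3*, which had both factors (561 and 41.3 FPKM), so the direction was that of the whole list.

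Of 15 neural progenitor genes 4 were POL2-only, *Hes5*, *Nes*, *Ptch1* and *Sox3*, and all 4 were over 2-fold lower, as were 13 of the whole list (9.93% of all expressed loci were lower). *Sox3* had 64.9 FPKM in the WT and 7.68 in the KO library. In the Notch pathway, which holds progenitors back from differentiation through Hes genes, 7 of 19 genes were POL2-only. Of all listed genes 17.7% were POL2-only. The ligand genes *Dll1* and *Dll3* had 8.95 and 21.2 FPKM in the WT library and 2.22 and 1.18 in the KO library, and *Jag1* had 1.55 and 1.54 FPKM. Among the targets *Hes5* had 24.4 and 0.533 FPKM, while *Hes1* had 39.0 and 33.6 FPKM and *Hey1* was over 2-fold lower (log2 −2.68). The coactivator gene *Maml1* had 7.13 and 5.82 FPKM.

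The time course of these genes showed different onsets. *Hes5* had 0.135 FPKM in WT ES cells, and at EB day 4 it had 71.0 FPKM in the WT and 3.61 in the KO library. *Elavl4* was still at 2.73 and 0.880 FPKM at EB day 4, and *Map2* at 2.86 and 3.28 FPKM, so *Map2* was within 2-fold at day 4. *Hoxc4* and *Hoxc5*, 2 of the 3 POL2-only members of the Hox list, had 37.3 and 22.1 FPKM and 11.6 and 19.4 FPKM at day 4, the latter higher in the library labelled KO. At day 6 both were lower there, with 78.6 and 6.81 FPKM for *Hoxc4* and 58.5 and 4.61 FPKM for *Hoxc5*, which shares its listed coordinates with *Mir615*. The third member, *Hoxc6*, had 4.70 and 4.37 FPKM at day 6. Members were classed by the ends of listed coordinates, which *Hoxa3*, *Hoxa4* and *Hoxa5* share, so peaks at their own starts do not count. Of the whole list, 16 of 19 Hox genes were over 2-fold lower at day 6 and 0 higher, beside 9.93% lower and 10.5% higher of all expressed loci.

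The 10 lowest ratios at EB day 6 among POL2-only loci above 1 FPKM in both libraries belonged to *Pantr1*, *Phf21b*, *Dll3*, *Apba2*, *Hoxc5*, *Hoxc4*, *Cxcr4*, *Gpc2*, *Map2* and *Lrrn1*. *Pantr1*, a noncoding RNA gene next to the neural factor gene *Pou3f3*, had 49.3 FPKM in the WT and 1.21 in the KO library (log2 −5.35). *Cxcr4*, a chemokine receptor of migrating cells, had 39.6 and 3.54 FPKM. The POL2-only peaks of these 10 loci had scores from 63.4 to 455, beside quartiles of 73.6 and 213 over all POL2-only peaks.

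The 10 highest ratios belonged to *Nupl1*, *Ccn1*, *Hspg2*, *Myh9*, *Jam2*, a locus without a symbol, *Mmp19*, *Klf6*, *Sparc* and *Exoc3l*. *Sparc*, a matrix glycoprotein gene, had 85.9 FPKM in the WT and 282 in the KO library, and *Ccn1*, a matricellular protein gene, had 11.7 and 48.9 FPKM. *Hspg2* (perlecan) had 3.24 and 12.8 FPKM, and *Myh9* had 21.3 and 79.4 FPKM. The immediate early gene *Atf3* was over 2-fold higher too (log2 1.64), the 1 such POL2-only member of 7 in its list, and of the 21 expressed genes of the whole list 7 were over 2-fold higher (10.5% of all expressed loci).

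Cell type markers moved with these ratios. Summed over 10 pluripotency genes the EB day 6 level was 1576 FPKM in the library labelled WT and 4436 in the library labelled KO, with 7 of 10 over 2-fold higher, and 9 motor neuron genes summed to 639 and 44.7 FPKM, with 8 of the 8 expressed lower and *Tubb3*, a gene of neurons in general, holding 561 and 41.3 FPKM of these sums. Of all expressed loci 9.93% were lower and 10.5% higher. Of the pluripotency sums *Dppa5a* alone held 1026 and 3080 FPKM. For 9 genes of mesoderm and vessels the sums were 12.03 and 44.3 FPKM. Most of these were *Pecam1* (6.25 and 19.4 FPKM), *Hand1* (1.82 and 14.5 FPKM) and *Gata2* (2.84 and 7.87 FPKM). Only 4 of the 9 were expressed, and all 4 were over 2-fold higher. *Pecam1* was at 15.4 FPKM in WT ES cells. The defining motor neuron markers *Slc18a3* and *Lhx3* stood at 0.479 and 0.335 FPKM in the library labelled KO and *Chat* was listed at 0. None of the 10 pluripotency, 9 mesoderm, 7 endoderm, 7 muscle, 3 blood, 10 glial and 9 motor neuron genes was POL2-only, beside 17.7% of all listed genes. The muscle, blood, mesoderm and glial lists had medians of 0.243, 0.0743, 0.257 and 0.603 FPKM at EB day 6 WT. Loci with no peak had a median of 0.129 FPKM. The endoderm, motor neuron and pluripotency lists had medians of 1.47, 10.96 and 52.6 FPKM. The part of these cell types in the ratios was not tested.

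In newborn spinal column tissue 232 of 3734 expressed POL2-only loci were over 2-fold lower in the library labelled KO (6.21%, 5.48 to 7.03%) and 210 higher (5.62%, 4.93 to 6.41%), beside 8.54% and 9.05% of all expressed loci. Loci with POL2 and TAF9B were lower less often there (4.40%, 3.69 to 5.24%) and higher more often (7.46%, 6.52 to 8.51%), and neither pair of intervals overlapped. The medians of the log2 ratio were 0.07 and 0.18. *Elavl3* had 32.2 FPKM in the WT and 11.1 in the KO library, *Elavl4* 9.12 and 4.35, *Map2* 42.3 and 20.6 and *Rbfox3* 17.2 and 7.74 FPKM, while *Stmn2* was within 2-fold (236 and 170 FPKM). *Hes5* (3.65 and 3.05 FPKM) and *Sox3* (1.32 and 1.22 FPKM) were within 2-fold. Muscle genes and a haemoglobin gene were abundant in this tissue, in both directions by label. *Actc1* had 2843 and 4211 FPKM, *Hba-a2* 2544 and 4742 FPKM and *Myh3* 420 and 218 FPKM, while *Acta1* was listed at 0 in both libraries and the leukocyte genes *Itgam* and *Ptprc* were below 3 FPKM.

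Against ES cells in the same table, wild type spinal cord was over 2-fold lower at 39.0% of 3809 expressed POL2-only loci (37.4 to 40.5%) and higher at 19.4% (18.2 to 20.7%), beside 35.7% and 30.4% of all loci. Loci with POL2 and TAF9B had nearly the same shares, 38.5% (36.7 to 40.4%) and 18.9% (17.5 to 20.4%). The cell cycle genes *Mcm2* and *Mcm5*, both POL2-only, were at 4.38 and 4.01 FPKM in spinal cord, and the ribosomal protein gene *Rpl41* was at 2996 FPKM. *Map2* was higher in spinal cord, with 121 FPKM, and *Elavl3* with 82.7 FPKM.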

How the data were processed

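ChIP-seq peaks were called by the authors from EB-MN chromatin (8WG16 antibody for POL2, anti-TAF9B for TAF9B) with Bowtie and MACS on mm9, versions not given in the sources used here. The deposited peak score is by its range −10 log10 p, and whether the IgG library served as control is not given. Poly-A RNA-seq libraries were aligned with TopHat, and the deposited FPKM values were made by the authors with Cuffdiff, each pair of libraries in a table of its own. Fold changes, p-values and q-values of the authors in these tables were not used.

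Members are POL2 peaks with 0 bases shared with TAF9B peaks. The members and the gene lists were chosen with earlier results of these data known. The 6 tables were joined on accession and locus (23152 loci, 22828 with a symbol through RefSeq accessions, 22044 with a strand from GENCODE). Coordinates are shared by several genes for 15.8% of rows, so that an end may be another gene's. Expressed means above 1 FPKM in either library. An exact 0 can be a failed estimate: *Eef2* was listed at 0 in the EB day 4 KO library. With 1 library a condition no test was made, and calls are ratios past 2-fold. FPKM tables give no read depth. Named peaks were the highest-scored and widest, and those between and inside loci, and named loci the highest FPKM, the 10 largest ratios each way and the best-scored list members. One locus that this rule names is not reported here. Steps were tested on simulated data. Python 3.11.15, pandas 2.3.3, scipy 1.17.1 and matplotlib 3.10.9 were used. Intervals are 95% Wilson intervals. Alternatives were the overlap rule, distance to ends, score, FPKM filter, pseudocount of 1, centring and status.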

Additional observations from a re-analysis of the deposited data

Results flagged for a closer look

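Among the POL2-only loci with the largest ratios at EB day 6, *Nupl1* and *Hspg2* were past 2-fold in opposite directions at EB day 6 and in the newborn spinal column. *Nupl1*, a nuclear pore gene, was at 12.4 FPKM in the EB day 6 library labelled WT and 74.8 FPKM in the library labelled KO (log2 2.59), and at 48.7 and 13.5 FPKM in the spinal column (log2 −1.86). *Hspg2* was at 3.24 and 12.8 FPKM in the EBs (log2 1.98) and at 17.4 and 5.28 FPKM in the spinal column (log2 −1.72). With 1 library a group these differences were not tested. At EB day 2 *Nupl1* was lower in the library labelled KO, as in the spinal column, with 87.9 and 21.4 FPKM, and in ES cells (145 and 287 FPKM) and at EB day 4 (129 and 156 FPKM) it was within 2-fold.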

How the results depend on the processing

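No paired analysis was possible because each condition was 1 library. Of 83 alternatives to 11 results, 61 left a median or share within its interval or a count within 1.5 times, 22 moved it and 0 turned a direction, and 30 named loci kept direction and side of 2-fold in all 60 alternatives. The share of POL2 peaks without TAF9B was 74.7% against TAF9B peaks above the median score and 58.5% with a 1000 bp margin, both outside its interval. Some alternatives were chosen after seeing the data: the filter at 10 FPKM, unshared coordinates, GENCODE starts and those on the palindrome. Restricting to POL2 scores above the median left 2341 members (54.3% of such POL2 peaks), 75.1% at a locus end, medians of log2 KO/WT of 0.0164 at EB day 2, −0.102 at day 4 and 0.103 in the spinal column, 141 lower and 53 higher loci at EB day 6, a median of 17.6 FPKM and the palindrome in 4.55% of promoters. The share at an end, 67.9%, was 76.9% with 1000 bp, 87.1% with 5000 bp, 75.8% with any base of the peak and 76.0% with GENCODE starts. Centring moved the medians to 0.00117 in ES cells, −0.0531 at EB day 4 and 0.0120 in the spinal column. With 1.5-fold, 625 loci were lower and 317 higher at EB day 6 (18% and 18.8% of all loci). Above 10 FPKM the median was −0.0538, with 170 lower (6.65%, all loci 7.64%). Loci above 1 FPKM had a median of 17.0 FPKM, and at 60 to 65% GC the palindrome was in 4.89% of promoters.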

Other observations

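Cell cycle genes were divided among the classes, with 7 of 27 POL2-only, 6 with POL2 and TAF9B and 11 with no peak at an end. Of all listed genes 17.7% were POL2-only, 12.7% had both and 62.5% had no peak at an end. The 7 had a median of 117 FPKM at EB day 6 WT and 0 passed 2-fold, beside 1 lower and 0 higher of all 27, and 9.93% lower and 10.5% higher of all expressed loci. *Cdk4*, a G1 kinase gene, had 556 FPKM in the library labelled WT and 391 in the library labelled KO, and *Cdkn1c*, which encodes a cell cycle inhibitor, had 228 and 169 FPKM.

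Of 23 immediate early and heat shock genes 7 were POL2-only, beside 17.7% of all listed genes. *Hspa8* had 1869 FPKM in the WT and 2432 in the KO library at EB day 6, *Hsp90aa1* 889 and 1710, *Btg2* 30.7 and 40.4 and *Egr1* 5.21 and 4.12 FPKM. The noncoding RNA host gene *Snhg8* carried a POL2-only peak with a score of 1074 and had 46.3 and 40.3 FPKM, and *Snhg5* had 31.8 and 29.9 FPKM under a score of 568. The microRNA host *Mir124a-1hg* had 2.39 and 0.149 FPKM under a score of 69.0.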
